A study of Homo sapiens with 32 samples.

Results

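Integrin and laminin subunit genes were followed in HGrC1 cells, an immortalized, non-luteinized human granulosa cell line, during long exposure to perfluorooctane sulfonate (PFOS), a persistent fluorinated surfactant. The genes taken were those annotated as mRNA whose symbol begins with ITGA, ITGB, LAMA, LAMB or LAMC, without BP or AS in it. The rule gave 39 of 47137 gene entries (18583 of them with values): 18 integrin alpha, 9 integrin beta, 5 laminin alpha, 4 laminin beta and 3 laminin gamma genes. It left out ITGB3BP, ITGB1BP1 and ITGB1BP2, which encode integrin-binding proteins, and kept ITGBL1, which encodes an integrin-beta-like protein and no receptor subunit.

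The cells received vehicle (0.05% DMSO, the control) or 1 of 3 concentrations of PFOS, 0.01 µM, 0.1 µM and 1 µM, for 6 or 12 weeks, with fresh PFOS at each passage. Each of the 8 groups had 4 libraries, 1 from each of 4 vials of the line that had been frozen on different dates, and the cells of a vial were split over the 4 arms. All arms were kept in serum-containing medium with 100 nM of a steroid hormone, given as estradiol in the sample labels and as testosterone in the study's methods. HGrC1 is a single line, so the replicates are vials and not donors. The p-values below rest on the spread between the libraries of a group, which come from different vials.

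Integrins are receptors of an alpha and a beta subunit that span the membrane and tie the extracellular matrix to the cytoskeleton. Laminins are trimers of an alpha, a beta and a gamma chain that build the sheet of the basement membrane and are bound by several integrins. In the ovarian follicle, granulosa cells rest on the follicular basal lamina, which contains laminins.

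Integrin alpha subunits are usually grouped by ligand. ITGA5, ITGA8, ITGAV and ITGA2B recognize the RGD peptide of proteins such as fibronectin and vitronectin, and ITGA3, ITGA6 and ITGA7 bind laminins. ITGA1, ITGA2, ITGA10 and ITGA11 bind collagens, ITGA4 and ITGA9 bind VCAM1 among other ligands, and ITGAD, ITGAE, ITGAL, ITGAM and ITGAX are known from leukocytes.

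The sequence before the start site is shown for 4 genes on which the results turn: ITGA11, with the steepest fall between 6 and 12 weeks, ITGA5 and LAMB1, abundant genes that fell in every arm, and ITGB5, the member that passed in a PFOS comparison. Each window holds the 250 bases upstream of the RefSeq start on GRCh38.p14, written 5′ to 3′ on the strand of the gene, the minus strand for all 4. The windows lie at chr15:68432164-68432413, chr12:54419267-54419516, chr7:108003162-108003411 and chr3:124901419-124901668. Capitals mark matches, on either strand, to the GC box GGGCGG, the TEAD motif GGAATG, the AP-1 motif TGANTCA or the TATA box TATAAA.
ITGA11: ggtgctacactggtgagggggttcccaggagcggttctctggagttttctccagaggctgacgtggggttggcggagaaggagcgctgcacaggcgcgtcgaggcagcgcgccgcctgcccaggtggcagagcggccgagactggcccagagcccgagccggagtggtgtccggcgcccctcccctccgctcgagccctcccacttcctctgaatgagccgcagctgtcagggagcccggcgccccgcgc
ITGA5: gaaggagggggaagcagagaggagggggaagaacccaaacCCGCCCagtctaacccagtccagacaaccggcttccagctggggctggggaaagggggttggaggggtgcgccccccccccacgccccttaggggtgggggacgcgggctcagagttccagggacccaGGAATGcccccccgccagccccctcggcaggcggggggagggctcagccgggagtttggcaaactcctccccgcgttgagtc
LAMB1: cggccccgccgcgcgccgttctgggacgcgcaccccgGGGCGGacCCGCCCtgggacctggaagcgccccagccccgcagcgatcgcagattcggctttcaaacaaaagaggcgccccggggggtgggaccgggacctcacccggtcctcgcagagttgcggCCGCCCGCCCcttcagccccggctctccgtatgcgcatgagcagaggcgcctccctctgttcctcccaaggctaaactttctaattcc
ITGB5: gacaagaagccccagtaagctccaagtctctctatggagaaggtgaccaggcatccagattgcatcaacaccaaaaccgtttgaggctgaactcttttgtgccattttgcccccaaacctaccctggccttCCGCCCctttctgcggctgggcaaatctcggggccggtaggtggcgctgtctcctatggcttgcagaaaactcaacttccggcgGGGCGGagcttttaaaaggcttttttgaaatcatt

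The capitals in ITGA5 are 1 GC box and 1 TEAD match, those in LAMB1 are 4 GC boxes, the last pair overlapping, those in ITGB5 are 2 GC boxes, and the ITGA11 window holds no match. RefSeq gave a window for 27 of the 39 members. A GC box was found in 14 of these (42.3% of 27305 windows of all genes), a TEAD match in 4 (11.9% of all windows), an AP-1 match in 1 (6.6%) and a TATA box in 1 (11.1%). Of 9 matched genes that were lower at 12 weeks in all 4 arms (below), 5 held a GC box, 1 a TEAD match and 0 an AP-1 match or a TATA box. Their median GC content was 70.4%, beside 60.4% for the matched members and 58% for all windows. A match is a description of the letters only.

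RNA was measured as read counts per gene, with library totals between 17907057 and 18553350. Levels are given as TPM, a transcript abundance scaled by transcript length and library size, so that genes can be compared. Of 11 granulosa markers with values, 6 had a median of at least 1 TPM (AMH, FST, HSD17B1, INHBA, STAR and INHA). CYP11A1, FOXL2 and NR5A1 had medians of 0.69, 0.635 and 0.06 TPM, and CYP19A1 and AMHR2 stayed at or under 1 and 3 counts. FSHR, also in the list, had no values. The keratin genes KRT8 and KRT18 had medians of 3398 and 2609 TPM. Transcripts typical of hepatocytes (AFP, ALB, AHSG, APOB, AMBP and GPC3) summed to 0 or 1 count in the control and 0.01 µM libraries of 6 weeks, to 88 to 141 at 0.1 and 1 µM of 6 weeks, and to 72 to 174 in the PFOS libraries of 12 weeks. In the 12-week control they summed to 81 to 115 in 3 libraries and to 919 in replicate 3, which stood apart.

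The most abundant members were ITGB1 and ITGA3. ITGB1 (chr10:32900318-32958230, minus strand), the beta partner of many alpha subunits, had a mean of 414 TPM over the 32 libraries (362.85 to 470.43). ITGA3, which pairs with ITGB1 into a laminin receptor of epithelia, followed with a mean of 250 TPM (193.95 to 306.77). These ranges do not overlap, and both lie above that of LAMB2, the next gene.

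A second tier held receptor subunits and laminin chains side by side. LAMB2 had a mean of 118 TPM (103.14 to 144.27), ITGB4, the beta subunit of hemidesmosomes, 103 (79.36 to 122.85), and ITGA5, the alpha subunit of a fibronectin receptor, 94.6 (59.05 to 126.77). LAMB1, LAMA5 and LAMC1, which together form a laminin common in basement membranes, had means of 87.7, 85.9 and 72 TPM. ITGAV and ITGB5, which pair into a vitronectin receptor, had means of 56.7 and 55 TPM. Each of these ranges, taken over both times and all arms, overlaps that of the next gene in the order. Such overlap does not show that neighbours are equal, since LAMB2 read above ITGB4 within each library. The range of LAMB2 lies wholly above those of LAMC1, ITGAV and ITGB5.

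Lower mean levels were found for ITGA7 (25.7 TPM), LAMA4 (12.5), LAMA3 (9.76), ITGA1 (8.69), ITGB3 (8.35), LAMC3 (7.31) and ITGA6 (6.73). Below these came ITGA2 (4 TPM), ITGAE (3.53), ITGA2B (2.82), LAMA1 (2.46), LAMB3 (2.18) and ITGB8 (1.38). LAMA3 and LAMB3, chains of the hemidesmosome laminin, reached at most 11.33 and 2.97 TPM. ITGA6 and ITGB4, the subunits of the hemidesmosome receptor, were far from equal, with 0.071 ± 0.00534 TPM of ITGA6 per TPM of ITGB4 in the 6-week control (SD, n = 4).

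The other 15 members had means under 1 TPM. Of these, ITGAX (23 to 75 counts), ITGAM (29 to 62), ITGBL1 (8 to 33), ITGB2 (4 to 19), ITGA11 (1 to 38), LAMA2 (7 to 29) and ITGA4 (0 to 17) had enough counts for at least 1 fit. The other 8 were tested in none: ITGB7 (1 to 9 counts), ITGA10 (0 to 10), ITGB6 (0 to 3), ITGA9 and LAMB4 (0 to 2 each), ITGAL and ITGAD (0 to 1 each) and ITGA8. ITGA8 had 0 counts in all 32 libraries. A 0 in 1 library alone allows up to 3 counts (counting error only), and the 32 together allow fewer per library. The filter on low counts left 30 members in the fit of each time and 31 in the fit of both times, so the counts of members below are of those tested and not of all 39.

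To ask whether PFOS changed these transcripts, each concentration was compared with the control of the same time. ITGB5 at 0.1 µM after 6 weeks was the single member that passed (edgeR quasi-likelihood test, Benjamini-Hochberg adjusted p at or under 0.05 over all genes). After 6 weeks 0, 1 and 0 of 30 tested members passed at 0.01, 0.1 and 1 µM, where 0%, 4.24% and 0.28% of 12836 genes passed (2.69% were lower at 0.1 µM). After 12 weeks 0 of 30 passed at each concentration, where 0%, 1.07% and 0.22% of 12742 genes passed. At an unadjusted edgeR p under 0.05 there were 6, 7 and 4 of 30 members at 6 weeks, beside 9.6%, 20.8% and 13.7% of all genes, and 10, 5 and 1 of 30 at 12 weeks, beside 8.48%, 15.4% and 8.75%. DESeq2 called 2 members at 0.1 µM after 6 weeks and 0 in each of the other comparisons. No share of all genes is given for DESeq2, here or below. With a replicate block, which takes equal replicate numbers as a pair, edgeR also called ITGA5, ITGB3 and LAMB3 at 0.1 µM after 6 weeks. No member that passed changed 2-fold. The 3 concentrations of a time share their control libraries.

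ITGB5 (chr3:124761948-124901418, minus strand) read 67.53, 73.01, 65.69 and 66.98 TPM in the 6-week control and 61.15, 64.86, 62.55 and 57.09 at 0.1 µM PFOS. The highest treated library lay just under the lowest control library. The log2 fold change was −0.13 (SE 0.04, edgeR adjusted p = 0.0412), with an exact permutation p of 0.0286, the smallest that 4 against 4 libraries allow. The call was lost without any 1 of the 4 replicates (edgeR adjusted p 0.092 to 0.174), with all 32 libraries in 1 fit (0.113) and with the 8 libraries alone (0.0684). It was kept by DESeq2 (adjusted p 0.0241). In edgeR it was also kept with RLE normalization (adjusted p 0.0425), with 2 other filters on low counts (0.0443 and 0.0446) and with a replicate block (0.0222).

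At 1 µM after 6 weeks ITGB5 read 64.01, 64.01, 60.78 and 60.51 TPM, again under the control, but on read counts scaled for library size alone the groups overlapped (log2 fold change −0.08, SE 0.04, edgeR adjusted p = 0.356). At 0.01 µM it read 68.55, 69.52, 64.85 and 66.98 TPM, which overlaps the control. At 12 weeks the control read 44.65 to 46.58 TPM and each PFOS group overlapped it on TPM. On TMM-scaled CPM, 0.1 µM at 12 weeks did not overlap the control (log2 fold change −0.09, SE 0.05, edgeR adjusted p = 0.337, exact permutation p = 0.0286).

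LAMB3, the beta chain of the hemidesmosome laminin, had the next lowest p at 0.1 µM after 6 weeks. It read 2.72, 2.61, 2.97 and 2.47 TPM in the control and 2.38, 2.19, 2 and 1.93 at 0.1 µM, with no overlap (−0.36, SE 0.11, edgeR adjusted p = 0.0519). At 1 µM it had the lowest p of the members, with 2.16, 2.44, 2.5 and 1.52 TPM and 1 library inside the control range (−0.29, SE 0.11, edgeR adjusted p = 0.218). LAMB3 was counted 72 to 135 times per library, which limits its precision.

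ITGB3, the beta subunit of a vitronectin receptor, read 12.15, 11.32, 13.6 and 11.17 TPM in the 6-week control and 10.41, 10.36, 10.26 and 8.22 at 0.1 µM (−0.28, SE 0.09, edgeR adjusted p = 0.0973). ITGA5 read 126.77, 119.99, 119.81 and 124.16 TPM in that control and 111.49, 115.71, 113.13 and 97.75 at 0.1 µM (−0.11, SE 0.04, edgeR adjusted p = 0.09). In both genes every treated library lay under every control library. Neither passed in the edgeR fit without a replicate block, and DESeq2 called ITGB3 (0.033). With that block both passed in edgeR (adjusted p 0.0295 for ITGB3 and 0.0482 for ITGA5). ITGB4 read 84.84, 96.2, 83.43 and 99.99 TPM in the control and 106.6, 104.47, 111.64 and 110.11 at 0.1 µM, all above it (0.27, SE 0.11, edgeR adjusted p = 0.182), and passed with the 8 libraries alone (0.0157).

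At 0.01 µM after 6 weeks LAMB2 had the lowest p of the members, at 105.1, 113.55, 107.67 and 116.39 TPM in the control and 109.76, 120.86, 119.97 and 124.03 with PFOS. The groups overlap (0.11, SE 0.04, edgeR adjusted p = 0.453).

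After 12 weeks the members with the lowest p were ITGBL1 at 0.01 µM, LAMA1 at 0.1 µM and LAMA5 at 1 µM, and none passed. LAMA5, the most abundant laminin alpha chain, read 85.34, 81.87, 72.07 and 74.45 TPM in the control and 88, 87.22, 100.96 and 109.31 at 1 µM (0.23, SE 0.07, edgeR adjusted p = 0.26). At 0.1 µM it read 92.41, 87.34, 99.02 and 91.69 TPM (0.21, SE 0.07, edgeR adjusted p = 0.182). In both, all 4 treated libraries lay above the 4 control libraries.

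LAMA1, an alpha chain of embryonic laminin, read 1.71, 1.92, 2.29 and 2.33 TPM in the 12-week control and 1.45, 1.79, 1.59 and 1.67 at 0.1 µM (−0.38, SE 0.13, edgeR adjusted p = 0.175). ITGBL1 read 0.83, 0.55, 0.67 and 0.93 TPM in the control and 0.61, 0.42, 0.42 and 0.26 at 0.01 µM (−0.77, SE 0.25, edgeR adjusted p = 0.565). Both pairs of groups overlap. The 10 of 30 members at an unadjusted p under 0.05 at 0.01 µM (beside 8.48% of all genes) were all lower than the control, with edgeR adjusted p-values of 0.565 or more.

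Over the 18 members with a mean of at least 5 TPM, the log2 fold changes at 6 weeks lay between −0.22 and 0.25 at 0.01 µM, −0.28 and 0.27 at 0.1 µM, and −0.16 and 0.11 at 1 µM. At 12 weeks they lay between −0.42 and 0.05, −0.67 and 0.21, and −0.17 and 0.23. The lowest of these was LAMA4 at 0.1 µM (SE 0.30), whose control libraries were themselves spread from 5.4 to 13.74 TPM. The medians over the tested members were −0.02, 0.00 and −0.02 at 6 weeks and −0.13, −0.07 and 0.02 at 12 weeks, beside 0.00 for all genes in each comparison.

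A change of the PFOS effect between the times was tested as an interaction, and 0 of 31 members passed in edgeR at any concentration, where 0%, 0.208% and 0.123% of 12988 genes passed. At an unadjusted p under 0.05 there were 3, 1 and 3 members, beside 7.48%, 14.5% and 12.1% of all genes, and DESeq2 called 0.

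**Figure D1:**
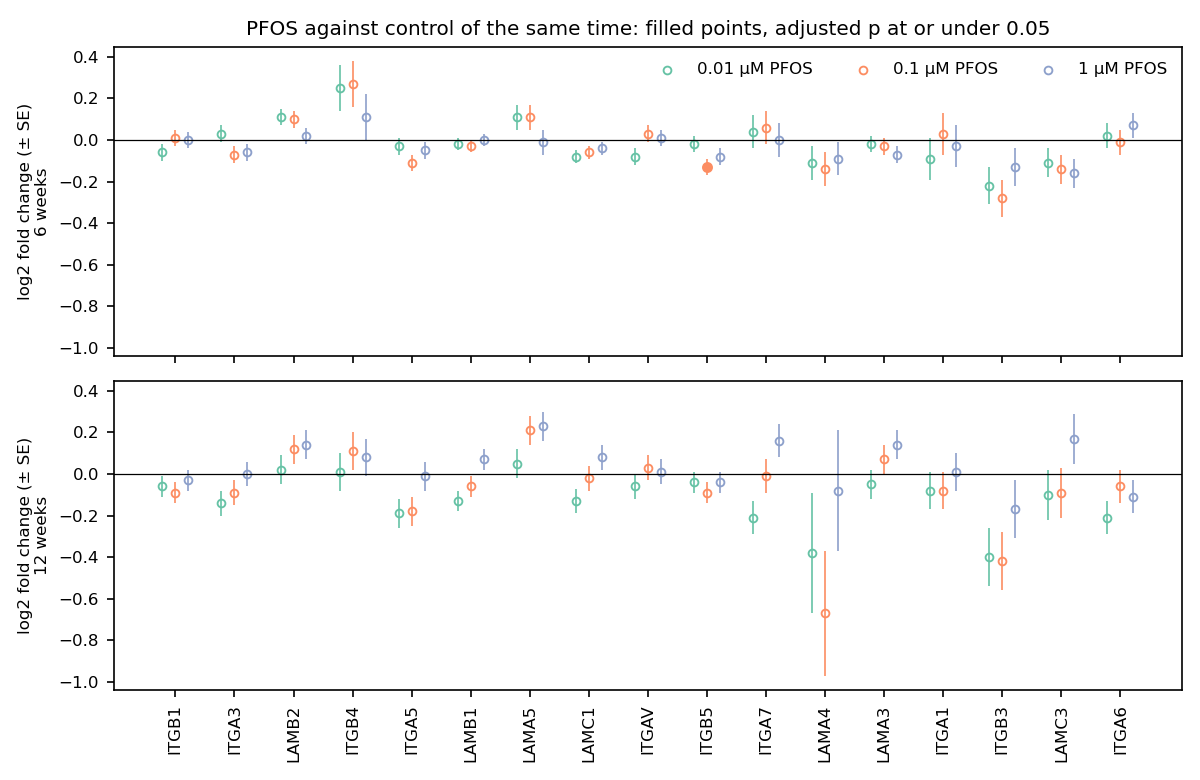
Log2 fold change (points) and its standard error (bars) of PFOS against the control of the same time, for 17 members with a mean of at least 5 TPM, at 3 concentrations and both times. Filled points passed at an adjusted p at or under 0.05. ITGB5 at 0.1 µM and 6 weeks is the single filled point.

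Culture time was compared within each arm, 12 weeks against 6, in 1 fit of all 32 libraries. In the control 15 of 31 members passed (48.4%), 2 higher and 13 lower, where 36.6% of all genes passed, 17.3% higher and 19.3% lower. At 0.01 µM 15 of 31 members passed (48.4%), 1 higher and 14 lower, where 42.7% of all genes passed, 21.4% higher and 21.3% lower. At 0.1 µM 16 of 31 members passed (51.6%), 2 higher and 14 lower, where 40.3% of all genes passed, 19.7% higher and 20.6% lower. At 1 µM 17 of 31 members passed (54.8%), 5 higher and 12 lower, where 30.1% of all genes passed, 14.2% higher and 15.9% lower. The share of members that were lower was 41.9%, 45.2%, 45.2% and 38.7% in the 4 arms. The median log2 fold change of the tested members was −0.08, −0.28, −0.20 and −0.10, beside 0.00 or 0.01 for all genes.

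ITGA1, ITGA11, ITGA5, ITGAV, ITGB3, ITGB5, ITGB8, LAMA1, LAMA4, LAMB1 and LAMC1 fell in all 4 arms, which is 11 of 31 tested members, where 9.87% of all genes did. DESeq2 called 15, 15, 16 and 19 members in the 4 arms, counts for which no share of all genes is given. By edgeR 0 of 31 rose in all 4 arms, where 6.68% of all genes did. Of the 31, 23 passed in at least 1 arm and 8 in none, counts for which no share of all genes was computed. Single arms alone called 30.1% to 42.7% of all genes. On TPM, the 16 libraries of 12 weeks lay wholly below the 16 of 6 weeks for 10 members (5.04% of all genes), namely ITGA1, ITGA11, ITGA3, ITGA5, ITGAV, ITGB5, ITGB8, LAMA1, LAMB1 and LAMC1, and wholly above them for 0 (1.33%). The times were harvested apart, so culture time and anything else that differed between the harvests cannot be told apart. In bulk RNA, fewer cells with a transcript and less of it per cell cannot be told apart either.

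**Figure D2:**
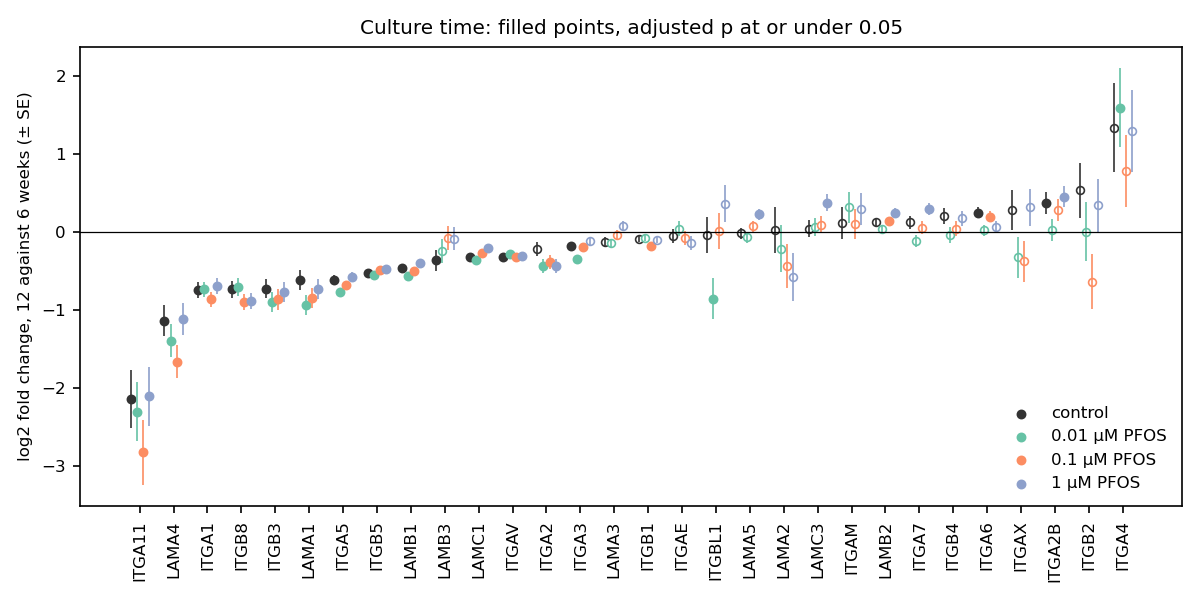
Log2 fold change (points) and its standard error (bars) of 12 against 6 weeks in the control and the 3 PFOS arms, for 30 tested members, ordered by the value in the control. Filled points passed at an adjusted p at or under 0.05. The genes from ITGA11 to LAMB1 at the left are filled and below 0 in all 4 arms, and no gene is filled above 0 in all 4.

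Among the RGD-binding alpha subunits, ITGA5 (chr12:54395261-54419266, minus strand) fell in every arm. Its control libraries read 126.77, 119.99, 119.81 and 124.16 TPM at 6 weeks and 80.45, 65.87, 84.05 and 77.1 at 12 weeks, with a wide gap between the groups. In the control ITGA5 was 34.7% lower (−0.61, SE 0.06, edgeR adjusted p = 7.15e-10). Its log2 fold changes in the PFOS arms were −0.77, −0.68 and −0.57 from the lowest to the highest concentration. Over all arms its median was 117 TPM at 6 weeks (97.75 to 126.77) and 74.9 at 12 weeks (59.05 to 84.05).

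ITGAV, the alpha subunit of the vitronectin receptors, read 64.29, 67.22, 62.89 and 62.85 TPM in the 6-week control and 50.03, 50.09, 49.66 and 48.57 in the 12-week control. The libraries of each group lie close together and the groups far apart (−0.31, SE 0.05, edgeR adjusted p = 7.66e-06), and the PFOS arms gave −0.28, −0.31 and −0.30. ITGA2B, the alpha subunit of the platelet fibrinogen receptor, rose in 2 arms. It read 2.62, 2.56, 1.84 and 2.47 TPM and then 2.92, 3.13, 2.84 and 2.92 in the control (0.38, SE 0.14, edgeR adjusted p = 0.0302), and its log2 fold change at 1 µM was 0.46 (SE 0.14, edgeR adjusted p = 0.011). The control call was lost without replicate 2, 3 or 4 (edgeR adjusted p 0.0698 to 0.12) and that at 1 µM without replicate 2 or 3 (0.0555 to 0.0654).

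Of the beta subunits that pair with ITGAV, ITGB3, ITGB5 and ITGB8 fell in every arm too, whereas ITGB1 passed in 1 arm (below) and ITGB6 was not tested. ITGB5 read 67.53, 73.01, 65.69 and 66.98 TPM in the 6-week control and 44.65, 44.98, 46.58 and 46.22 in the 12-week control (−0.52, SE 0.04, edgeR adjusted p = 1.47e-11), and the PFOS arms gave −0.54, −0.48 and −0.47. Its highest library of 12 weeks, at 49.6 TPM, lay under its lowest of 6 weeks, at 57.09.

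ITGB3 read 12.15, 11.32, 13.6 and 11.17 TPM in the 6-week control and 6.38, 5.42, 8.57 and 7.43 in the 12-week control (−0.72, SE 0.12, edgeR adjusted p = 5.15e-05). ITGB8, whose receptor with ITGAV activates latent TGF-beta, read 1.92, 1.45, 1.76 and 1.57 TPM and then 0.92, 1.09, 0.95 and 0.91 (−0.73, SE 0.11, edgeR adjusted p = 1.61e-06). Neither gene's control groups overlap. The PFOS arms gave −0.89, −0.86 and −0.76 for ITGB3 and −0.70, −0.89 and −0.88 for ITGB8.

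ITGB1 read 456.4, 470.43, 439.48 and 411.26 TPM in the 6-week control and 421.61, 398.76, 393.36 and 385 in the 12-week control, with overlap (−0.08, SE 0.04, edgeR adjusted p = 0.131). It fell at 0.1 µM, from 450.83, 450.7, 436.75 and 422.38 to 375.44, 395, 385.32 and 381.62 TPM (−0.18, SE 0.04, edgeR adjusted p = 0.000895), and its log2 fold changes at 0.01 and 1 µM were −0.07 and −0.10 (edgeR adjusted p = 0.16 and 0.0707). The TPM ratio of ITGA5 to ITGB1 lay between 0.231 and 0.302 in the libraries of 6 weeks and between 0.152 and 0.214 in those of 12 weeks. The ratio of ITGAV to ITGB5 was 0.942 ± 0.0164 in the 6-week control and 1.09 ± 0.0345 in the 12-week control (SD, n = 4).

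The laminin-binding alpha subunits moved in both directions. ITGA3 read 265.5, 273.99, 273.04 and 306.77 TPM in the 6-week control and 246.45, 205.46, 249.39 and 238.96 in the 12-week control (−0.18, SE 0.05, edgeR adjusted p = 0.0034), a call lost without replicate 2 (0.0829). It also fell at 0.01 µM (−0.34, SE 0.05, edgeR adjusted p = 5.2e-07) and 0.1 µM (−0.19, SE 0.05, edgeR adjusted p = 0.00127), and its value at 1 µM was −0.11 (SE 0.05, edgeR adjusted p = 0.0671).

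ITGA6 rose in the control, from 5.86, 6.55, 6.59 and 6.79 to 8.2, 6.91, 6.85 and 7.35 TPM (0.25, SE 0.07, edgeR adjusted p = 0.00503), and at 0.1 µM (0.20, SE 0.07, edgeR adjusted p = 0.0252). The first call was lost without replicate 1 (0.126) and the second without replicate 2, 3 or 4 (0.0506 to 0.196). ITGA7, known as the laminin receptor subunit of muscle, rose at 1 µM, from 24.1, 24.22, 23.73 and 24.2 to 34.08, 30.99, 26.61 and 30.25 TPM (0.30, SE 0.08, edgeR adjusted p = 0.00788), a call lost without replicate 2 (0.0628). ITGB4 passed in no arm, with log2 fold changes of 0.21, −0.03, 0.05 and 0.18 in the control and at the 3 concentrations. No member passed the interaction, so a difference between the arms was not shown for any of them.

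The 3 collagen-binding alpha subunits with enough counts fell in at least 3 of the 4 arms. ITGA1, a receptor for collagen IV, read 13.44, 11.62, 10.98 and 9.26 TPM in the 6-week control and 5.92, 6.27, 7.13 and 6.45 in the 12-week control (−0.74, SE 0.10, edgeR adjusted p = 2.08e-06). The groups are well apart, and the PFOS arms gave −0.73, −0.86 and −0.69. ITGA2, a receptor for collagen I, fell in the 3 PFOS arms, with log2 fold changes of −0.43, −0.38 and −0.43. In the control ITGA2 read 4.98, 4.4, 3.81 and 3.94 TPM and then 3.95, 3.6, 3.37 and 3.19, with overlap (−0.21, SE 0.09, edgeR adjusted p = 0.0655).

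ITGA11 (chr15:68296532-68432163, minus strand), a receptor for fibrillar collagens, had the largest fold change of the tested members in every arm, at a very low level. Its counts were 38, 30, 30 and 14 in the 6-week control and 6, 1, 14 and 4 in the 12-week control (−2.14, SE 0.37, edgeR adjusted p = 2.69e-05). The PFOS arms gave −2.30, −2.82 and −2.10. ITGA11 and LAMA4 were the members that fell more than 2-fold in every arm.

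The alpha4 and leukocyte classes gave few counts. ITGA4 rose at 0.01 µM, from 7, 4, 2 and 1 to 16, 12, 5 and 10 counts (1.60, SE 0.51, edgeR adjusted p = 0.0116), a call lost without replicate 2 or 4 (0.0603 to 0.0828). Its edgeR adjusted p was 0.062 in the control and 0.0554 at 1 µM. ITGBL1 fell at 0.01 µM, from 0.88, 1.02, 0.58 and 0.73 to 0.61, 0.42, 0.42 and 0.26 TPM (−0.85, SE 0.26, edgeR adjusted p = 0.0071), a call lost without replicate 2 (0.0806). ITGAE, ITGAM, ITGAX, ITGB2 and LAMA2 passed in no arm. The median of ITGAE was 3.62 TPM at 6 weeks and 3.42 at 12 weeks, while its partner ITGB7 stayed at or under 9 counts.

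The laminin alpha chains went different ways. LAMA4 (chr6:112107931-112254985, minus strand), a chain of endothelial and mesenchymal basement membranes, read 22.45, 17.6, 21.31 and 17.47 TPM in the 6-week control and 5.4, 6.96, 13.74 and 7.68 in the 12-week control. Replicate 3 of the 12-week control, the library with most hepatocyte transcripts, was the highest of its group. LAMA4 fell in each arm (−1.13, SE 0.20, edgeR adjusted p = 9.7e-05 in the control), and the PFOS arms gave −1.39, −1.66 and −1.11. LAMA1 read 3.93, 3.43, 2.82 and 3.09 TPM and then 1.71, 1.92, 2.29 and 2.33 in the control (−0.61, SE 0.13, edgeR adjusted p = 0.000372), and −0.93, −0.84 and −0.73 on the log2 scale in the PFOS arms.

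LAMA5 did not pass in the control, where it read 82.86, 79.78, 79.74 and 89.79 TPM and then 85.34, 81.87, 72.07 and 74.45 (−0.01, SE 0.07, edgeR adjusted p = 0.911). It rose at 1 µM, from 83.59, 69.76, 82.96 and 80.64 to 88, 87.22, 100.96 and 109.31 TPM (0.23, SE 0.07, edgeR adjusted p = 0.00807), a call lost without replicate 4 (0.0537). LAMA3 passed in no arm, with medians of 9.9 and 9.86 TPM, and its edgeR adjusted p at 0.01 µM was 0.0527.

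Of the summed TPM of the 5 laminin alpha genes, LAMA5 held a median of 73.1% at 6 weeks (69.5% to 77.7% over 16 libraries) and 82.6% at 12 weeks (74.5% to 86.1%). LAMA4 held 15.4% (12.2% to 18.8%) and then 6.41% (4.32% to 14.2%).

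Of the laminin beta chains, LAMB1 (chr7:107923799-108003161, minus strand) fell in every arm. It read 108.98, 102.91, 106.68 and 101.23 TPM in the 6-week control and 73.19, 67.79, 78.75 and 71.7 in the 12-week control, 27.1% lower (−0.46, SE 0.04, edgeR adjusted p = 2.32e-10), and the PFOS arms gave −0.56, −0.49 and −0.39. Its highest library of 12 weeks, at 82.76 TPM, lay well under its lowest of 6 weeks, at 96.22.

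LAMB2, which can take the place of LAMB1 in a trimer, read 105.1, 113.55, 107.67 and 116.39 TPM and then 117.23, 121.52, 113.21 and 108.32 in the control, with overlap (0.13, SE 0.06, edgeR adjusted p = 0.0829). It rose at 1 µM (0.25, SE 0.06, edgeR adjusted p = 0.00124) and at 0.1 µM (0.14, SE 0.06, edgeR adjusted p = 0.0449), where the call was lost under 6 alternatives (edgeR adjusted p 0.0532 to 0.23).

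The ratio of LAMB1 to LAMB2 TPM was 1.04, 0.906, 0.991 and 0.87 in the 6-week control and 0.624, 0.558, 0.696 and 0.662 in the 12-week control. Over all arms it lay between 0.82 and 1.04 at 6 weeks and between 0.519 and 0.696 at 12 weeks. LAMB2 exceeded LAMB1 in 15 of 16 libraries of 6 weeks and in 16 of 16 of 12 weeks. LAMB3 fell in the control, from 2.72, 2.61, 2.97 and 2.47 to 1.91, 2.25, 2.13 and 1.99 TPM (−0.36, SE 0.14, edgeR adjusted p = 0.0446), a call lost without replicate 1, 2 or 3 (0.082 to 0.156).

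Among the gamma chains LAMC1, found in most laminins, fell in every arm. It read 85.89, 81.01, 84.72 and 82.72 TPM in the 6-week control and 62.45, 60.04, 68.55 and 63.95 in the 12-week control (−0.32, SE 0.05, edgeR adjusted p = 9.86e-07), and the PFOS arms gave −0.36, −0.27 and −0.20. LAMC3 rose at 1 µM, from 6.37, 7.29, 6.77 and 5.62 to 8.01, 10.14, 8.3 and 9.07 TPM (0.38, SE 0.11, edgeR adjusted p = 0.00671), a call lost without replicate 4 (0.092).

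By family, the summed TPM of the integrin alpha genes lay between 476 and 551 in the libraries of 6 weeks and between 346 and 449 in those of 12 weeks, with no overlap. ITGA3, ITGA5 and ITGAV held medians of 53.4%, 23.1% and 12.7% of that sum at 6 weeks, so it mainly follows these genes. The laminin beta genes summed to medians of 219 (203 to 228) and 196 (167 to 225), which overlap. The sums of the integrin beta, laminin alpha and laminin gamma genes had medians of 611, 116 and 93.8 TPM at 6 weeks and 550, 105 and 79 at 12 weeks, with overlap in each.

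Lists of cell type markers were compared between the times as well. The hepatocyte list went from 0 or 1 count at 6 weeks to 81 to 919 at 12 weeks in the control and to 72 to 131 at 0.01 µM. It overlapped between the times at 0.1 and 1 µM, with 88 to 141 counts at 6 weeks and 92 to 174 at 12 weeks. Without replicate 3 of the 12-week control, 15 members passed in the control arm, 2 higher and 13 lower, an alternative chosen after seeing the data. No share of all genes is given for that fit.

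The summed level of the leukocyte list lay between 31.4 and 40.6 TPM at 6 weeks and 17.5 and 31.6 at 12 weeks, carried by CD14 and CD68 (2 of 9 genes with a median of at least 1 TPM), with PTPRC at or under 8 counts and CD3E at 0. The endothelial list lay between 3.88 and 5.36 TPM and then 1.74 and 3.08, carried by KDR and TEK (2 of 6 genes), with PECAM1, CDH5, VWF and CLDN5 at or under 0.33 TPM. The granulosa list lay between 44.2 and 53.4 TPM and then 35.3 and 48.9. The epithelial list (5359 to 6495 and 5647 to 6726 TPM, 3 of 7 genes) and the theca or stromal list (559 to 708 and 424 to 740 TPM, 2 of 6 genes) overlapped between the times. The part of these transcripts in the fall of the members was not tested.

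The pathway around the receptors was followed in 78 genes of 4 lists. At 0.1 µM after 6 weeks 7 of 73 tested pathway genes were lower and 2 higher (12.3%, where 4.24% of all genes passed). The lower ones included the actin linkers FLNA (−0.29, SE 0.06, adjusted p 0.0194), ACTN1 (−0.28, SE 0.07, adjusted p 0.0414), TLN2 (−0.27, SE 0.07, adjusted p 0.0395) and ACTN4 (−0.18, SE 0.04, adjusted p 0.0173), the integrin-binding ITGB1BP1 (−0.21, SE 0.05, adjusted p 0.0281) and the collagen IV chain COL4A1 (−0.18, SE 0.04, adjusted p 0.0207), all by edgeR.

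CCN2, a matrix protein that binds integrins, rose at 0.1 µM (0.26, SE 0.05, adjusted p 0.0118) and 1 µM (0.35, SE 0.05, adjusted p 0.00173) after 6 weeks, and the tetraspanin CD9 rose at 0.1 µM (0.15, SE 0.04, adjusted p 0.0373), by edgeR. CCN2 was the single pathway gene that edgeR called at 1 µM. DESeq2 called 11 pathway genes at 0.1 µM and 4 at 1 µM after 6 weeks, with no share of all genes beside them. In the other comparisons with the control, edgeR called 0 pathway genes. There, at 0.01 µM after 6 weeks and at 0.01, 0.1 and 1 µM after 12 weeks, 14, 8, 16 and 6 of 73 genes had an unadjusted p under 0.05, beside 9.6%, 8.48%, 15.4% and 8.75% of all genes, and DESeq2 called 0, 0, 1 and 0.

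Between the times, the integrin ligands other than laminins had the lowest list median, −0.39, −0.48, −0.43 and −0.30 in the 4 arms. Of 18 tested, 10, 11, 12 and 10 were lower and 1, 1, 1 and 0 higher. Of all genes 19.3%, 21.3%, 20.6% and 15.9% were lower and 17.3%, 21.4%, 19.7% and 14.2% higher. FN1, the fibronectin bound by the ITGA5 receptor, went from 481 ± 63.6 to 196 ± 22.4 TPM in the control (SD, 4 libraries each), and its log2 fold changes over the arms were −1.23, −1.06, −0.94 and −0.88. TGFBI, an adhesive matrix protein, went from 261 ± 25.4 to 105 ± 14.5 TPM, with −1.24, −1.16, −1.26 and −1.12.

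VTN, the vitronectin bound by ITGAV receptors, fell in each arm (−0.37, −0.63, −0.68 and −0.31), and so did VCAM1, a ligand of ITGA4, at group means under 2 TPM (−1.22, −2.26, −2.27 and −1.44). NPNT, a ligand of the receptor with ITGA8, went from 7.03 ± 1.29 to 2.2 ± 0.723 TPM in the control, while ITGA8 itself had 0 counts. IGFBP1, which carries an RGD peptide, rose in the control (4.10, SE 0.87), from 0.085 ± 0.0645 to 1.5 ± 2.01 TPM, a spread wider than its mean. IGFBP1 passed in no PFOS arm. The 12-week control holds replicate 3, the library with most hepatocyte transcripts, and its part in this rise was not tested.

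In the list of other laminin receptors and laminin-binding matrix, 6, 6, 4 and 5 of 15 tested genes were lower in the 4 arms and 1, 1, 2 and 2 higher. For this list and those below, the shares of all genes were 19.3%, 21.3%, 20.6% and 15.9% lower and 17.3%, 21.4%, 19.7% and 14.2% higher. NID2, a nidogen that links laminin to collagen IV, gave −0.76, −0.91, −0.88 and −0.75, and NTN4, a netrin that binds laminin, −0.59, −0.53, −0.48 and −0.49. Of 22 activators and cytoskeletal linkers, 7, 7, 5 and 4 were lower and 0, 4, 8 and 5 higher, with −1.16, −1.44, −1.42 and −1.28 for FERMT3, a kindlin that activates integrins, and −0.87, −0.93, −0.92 and −0.81 for the filamin-binding FBLIM1. Of 19 adhesion kinases, adaptors and regulators, 2, 3, 1 and 1 were lower and 4, 6, 6 and 5 higher. RPSA, a ribosomal protein also described as a laminin receptor, and the caveola gene CAV1, both chosen after their values were seen, rose in each arm, by 0.43, 0.61, 0.45 and 0.36 and by 0.37, 0.33, 0.27 and 0.23 on the log2 scale.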

How the data were processed

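Poly(A) mRNA of the 32 libraries was sequenced on DNBSEQ with a strand-specific protocol. Per the sources of the study, the authors filtered the reads, aligned them with HISAT2 2.0.4 and Bowtie2 2.2.5 to GRCh38.p14 and quantified genes with RSEM 1.2.8. The deposited expected counts, which RSEM estimates by sharing out ambiguous reads, were used for the tests after rounding to whole numbers. The deposited TPM values, which the authors obtained from RSEM, were used for levels. Deposited FPKM and normalized counts were not used here. Groups came from the sample labels, and 0 sample columns were left unmapped.

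Counts were tested with edgeR 4.0.16 in R 4.3.3 (TMM, filterByExpr, robust quasi-likelihood fit), with Benjamini-Hochberg adjustment over all genes tested. The 16 libraries of a time gave the comparisons with the control, and all 32 gave those between times and the interactions. A gene passed at an adjusted p at or under 0.05. Single genes were also compared by an exact two-sided permutation of log2 (CPM + 1) over libraries, with CPM scaled by TMM over all 32 libraries. Alternatives were DESeq2 1.42.0, RLE normalization, 2 other filters, other sets of libraries, a replicate block and leaving out each replicate. On simulated counts, the 16-library fit (12796 genes) recovered 92 of 100 genes changed 1.5-fold and 99 of 100 changed 2-fold with 8 false calls. The 32-library fit (12913 genes) recovered 92 of 100 and 100 of 100 with 13 false calls. The changed genes were drawn from the better counted ones, and changes under 1.5-fold were not simulated. Recovery of smaller changes or of genes with few counts is therefore not known.

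The labels describe the replicates as vials whose cells were divided over the arms, but do not state that a number is the same vial in every group, so the libraries were not treated as paired. Differences between vials thus stayed in the spread of the main fits, and the replicate block was run as an alternative. Of 48 pairs of replicates 0 were identical, and their counts differed beyond sampling noise (chi-square per degree of freedom 2.35 to 16.9). Library totals, 17907057 to 18553350, limit the precision of genes with few counts.

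The members and gene lists were chosen with earlier results of these data known. Named were all members that passed, the 2 most abundant of each role, the member with the lowest p in each PFOS comparison, the chains and partners listed, untested members, and up to 8 passing pathway genes per comparison by size of change. A gene of the set is counted in the totals but is not reported here.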

Additional observations from a re-analysis of the deposited data

Results flagged for a closer look

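In 6 of 192 sets of 4 libraries, over the 24 members with a mean of at least 1 TPM, 1 library lay apart from the other 3 by more than Dixon's 95% critical value. Chance alone flags about 1 set in 20. ITGA3 at 0.01 µM PFOS and 6 weeks read 298.16 TPM in replicate 4 and 276.37 to 279.42 in the others. ITGAE at 1 µM and 6 weeks read 4.06 TPM in replicate 2 and 3.53 to 3.56 in the others. ITGB3 at 0.1 µM and 6 weeks read 8.22 TPM in replicate 4 and 10.26 to 10.41 in the others, and at 0.01 µM and 12 weeks 6.23 TPM in replicate 2 and 4.8 to 4.97 in the others. LAMB1 at 0.01 µM and 6 weeks read 107.05 TPM in replicate 1 and 101.36 to 101.85 in the others. LAMC3 in the 12-week control read 8.34 TPM in replicate 3 and 7.19 to 7.31 in the others.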

How the results depend on the processing

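The count of members that passed at 0.1 µM PFOS after 6 weeks, 1 by edgeR, was 2 by DESeq2 (ITGB3 and ITGB5), 4 with the replicate block (ITGA5, ITGB3, ITGB5 and LAMB3), 0 with all 32 libraries, 2 with the 8 libraries alone (ITGB4 higher, LAMB3 lower) and 0 to 0 without 1 replicate. The cause was not tested. Without 1 replicate, 12 to 15 members passed between the times in the control, 13 to 16 at 0.01 µM, 14 to 16 at 0.1 µM and 15 to 17 at 1 µM, and 0 to 0 in the other comparisons with the control and the interactions. No share of all genes is given for the alternative fits of this section. No member result reversed. Of 63 calls between the times, 51 were kept under all alternatives run and 12 were lost under at least 1, mostly without 1 replicate. With the replicate block, which takes equal numbers as a pair, edgeR's adjusted p was 0.0222 for ITGB5, 0.0284 for LAMB3, 0.0295 for ITGB3 and 0.0482 for ITGA5 at 0.1 µM after 6 weeks. Between the times the block gave 0.0316 for ITGA2 and 0.0197 for ITGA4 in the control, 0.0185 for ITGA4 at 1 µM, 0.0481 for LAMA3 at 0.01 µM and 0.0532 for LAMB2 at 0.1 µM. It changed 9 calls, 8 added and 1 dropped. Deviations from the group means correlated between same-numbered libraries of a time by −0.161 to 0.18 on average, and 18 of 32 libraries correlated best with their own number, a hint from the data and not the design. By TPM and by TMM-scaled CPM, 14 members kept the same rank, and the largest shift was 4 places. Members with few counts could not show small changes at this depth.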
